A study of Drosophila melanogaster with 35 samples.

Results

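The genes described here are 8 genes of the ovarian follicle cell program of *Drosophila melanogaster*: the yolk protein genes *Yp1*, *Yp2* and *Yp3*, the vitelline membrane genes *Vm26Aa*, *Vm26Ab* and *Vm32E*, and the transcription factor genes *tj* (*traffic jam*) and *br* (*broad*). They were chosen by name, and each was given the 100-kb window whose midpoint lies nearest to the midpoint of the gene in the dm6 annotation. Because *Yp1* and *Yp2* share a window, as do *Vm26Aa* and *Vm26Ab*, the 8 genes stand on 6 of the 13391 windows of the deposited replication timing (RT) table. All 6 lie among the 11440 windows of the chromosome arms outside pericentric heterochromatin and chromosome 4.

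Follicle cells form the epithelium around the growing oocyte. They first divide by mitosis, then switch to endocycles in which DNA is replicated without division, and finally amplify the chorion gene clusters while they secrete the eggshell. Yolk proteins are made by the fat body and by follicle cells and are taken up by the oocyte, and the vitelline membrane is the inner layer of the eggshell. RT describes when in S phase a region is copied, and early replication often accompanies open and transcribed chromatin. Rif1 delays replication of late regions by recruiting Protein Phosphatase 1 (PP1), which counteracts activation of the replicative helicase.

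RT was measured in 9 conditions, each from 2 S phase samples of female flies. Endocycling follicle cells (sorted between 4C and 8C DNA content) came from *Rif1*- mutants (*Rif1* 1/*Rif1* 2) and from wild-type *OregonR*, and mitotic follicle cells (2C to 4C) came from *Rif1*- mutants, *Rif1PP1* mutants (*Rif1* PP1/*Rif1* 1, with a changed PP1-binding motif), heterozygotes (*Rif1* 2/CyO, called *Rif1*-/+ here) and *OregonR*, all from adult ovaries. Wing imaginal discs of larvae in the third instar came from *Rif1*- mutants, *Rif1PP1* mutants and wild-type *yw*. The 2C to 4C fraction can also hold cells in their first endocycle, the heterozygote carries a balancer chromosome, and tissue changes together with strain, library kit and read type, so that these cannot be told apart from tissue.

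The values are log2 ratios of S phase to G1 reads per window, with higher values for earlier replication, and wing disc G1 nuclei are named as the copy number control. A *Rif1*- wing disc G1 sample is also labelled, and which of the controls served the mutants is not given in the sources used here. Only 1 mean per condition and window was used here. No value therefore has an SD, no difference has a test or a replicate check, and the read depth behind a window is unknown. The RT level of a gene is given as the percentile of its window among the arm windows of the same condition (0 latest, 100 earliest), and the lowest and highest percentile over all windows that hold the whole gene shows how far the level depends on the choice of window. For differences, both conditions of a pair were brought to one distribution by quantile normalization, and a window passed the threshold when the change was over 0.1 in size on the log2 scale. Transcript levels were not analysed here, so RT is given without reference to expression.

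The pairs on a shared window lie close enough that no 100-kb value can separate them. *Yp2* (FBgn0005391, chrX:10050951-10052636, minus strand) and *Yp1* (FBgn0004045, chrX:10053811-10055498, plus strand) are transcribed away from each other and are 1174 bases apart, and the stretch between them holds known enhancers for fat body and ovary. *Vm26Ab* (FBgn0003980, chr2L:5957004-5957639, plus strand) and *Vm26Aa* (FBgn0003979, chr2L:5959596-5960340, minus strand) face each other with 1956 bases between them. The 100 bases before the annotated start of each of these 4 genes, read from the RefSeq dm6 genome on the strand of the gene, are shown to identify these promoters, with every match to TATAAA, the letters of a TATA box, in capitals.
*Yp2* (chrX:10052637-10052736, minus strand): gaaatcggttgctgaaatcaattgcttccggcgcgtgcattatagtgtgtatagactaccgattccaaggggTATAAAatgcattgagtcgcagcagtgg
*Yp1* (chrX:10053711-10053810, plus strand): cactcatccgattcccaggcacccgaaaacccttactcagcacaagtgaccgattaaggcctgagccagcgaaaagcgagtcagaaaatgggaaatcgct
*Vm26Ab* (chr2L:5956904-5957003, plus strand): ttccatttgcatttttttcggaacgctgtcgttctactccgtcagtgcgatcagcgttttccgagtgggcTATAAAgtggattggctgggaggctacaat
*Vm26Aa* (chr2L:5960341-5960440, minus strand): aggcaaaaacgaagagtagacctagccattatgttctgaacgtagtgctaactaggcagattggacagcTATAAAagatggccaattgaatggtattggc
The match began 28 bases before the start of *Yp2*, 30 before that of *Vm26Ab* and 31 before that of *Vm26Aa*, and these letters are not in the window shown for *Yp1*. The same stretches before *Yp3* and *Vm32E*, which are not shown, also held no match on either strand. On the strand of the gene, 15.2% of the 13945 protein-coding genes held the motif in a window of the same length, and 20.1% held it on either strand. A 100-kb RT value says nothing about any of these bases.

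The windows of the chorion genes, whose DNA is amplified in late follicle cells, served as a check of the tissue. The window of *Cp18* (chr3L) had a log2 S/G1 of 1.40 in *Rif1*- and 0.88 in wild-type endocycling cells, 0.44 to 0.75 in the 4 mitotic follicle cell conditions, and 0.11 to 0.15 in the 3 wing disc conditions. On the deposited scale the *Cp18* window was therefore raised in the 2C to 4C fractions as well, with 0.44 in wild type. The source of the raised ratios in the sorted fractions was not tested. By rank this window was early in both tissues, at percentile 99.4 in wild-type mitotic follicle cells and 96.3 in wild-type wing discs. The shared window of *Cp36* and *Cp38* (chrX) had 0.18 in wild-type mitotic follicle cells and 0.05 in wild-type wing discs. After normalization of that pair the change was 0.11 at *Cp18* and 0.08 at *Cp36*. GC content moved with RT most closely in *Rif1*- endocycling cells. Spearman's rho between GC content and log2 S/G1 over the 11440 arm windows was 0.74 in *Rif1*- endocycling cells and -0.12 in wild-type endocycling cells, and it lay between -0.48 and 0.15 in the other 7. These windows overlap, so the coefficients are descriptions. Among the 6 windows, *br* (47.5% GC, percentile 98.4 of arm windows), *tj* (45.5%, percentile 91.8) and *Vm26Aa/Vm26Ab* (45.3%, percentile 90.3) are GC-rich. *Yp1/Yp2* (42.2%), *Yp3* (42.5%) and *Vm32E* (42.1%) lie near the arm median of 42.6%, but their levels were not free of the GC trend. With that trend removed, the percentile in *Rif1*- endocycling cells went from 69.9 to 85.4 at *Vm32E* and from 87.9 to 96.6 at *Yp1/Yp2*. At *Yp3* it went from 54.0 to 57.0.

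**Figure D1:**
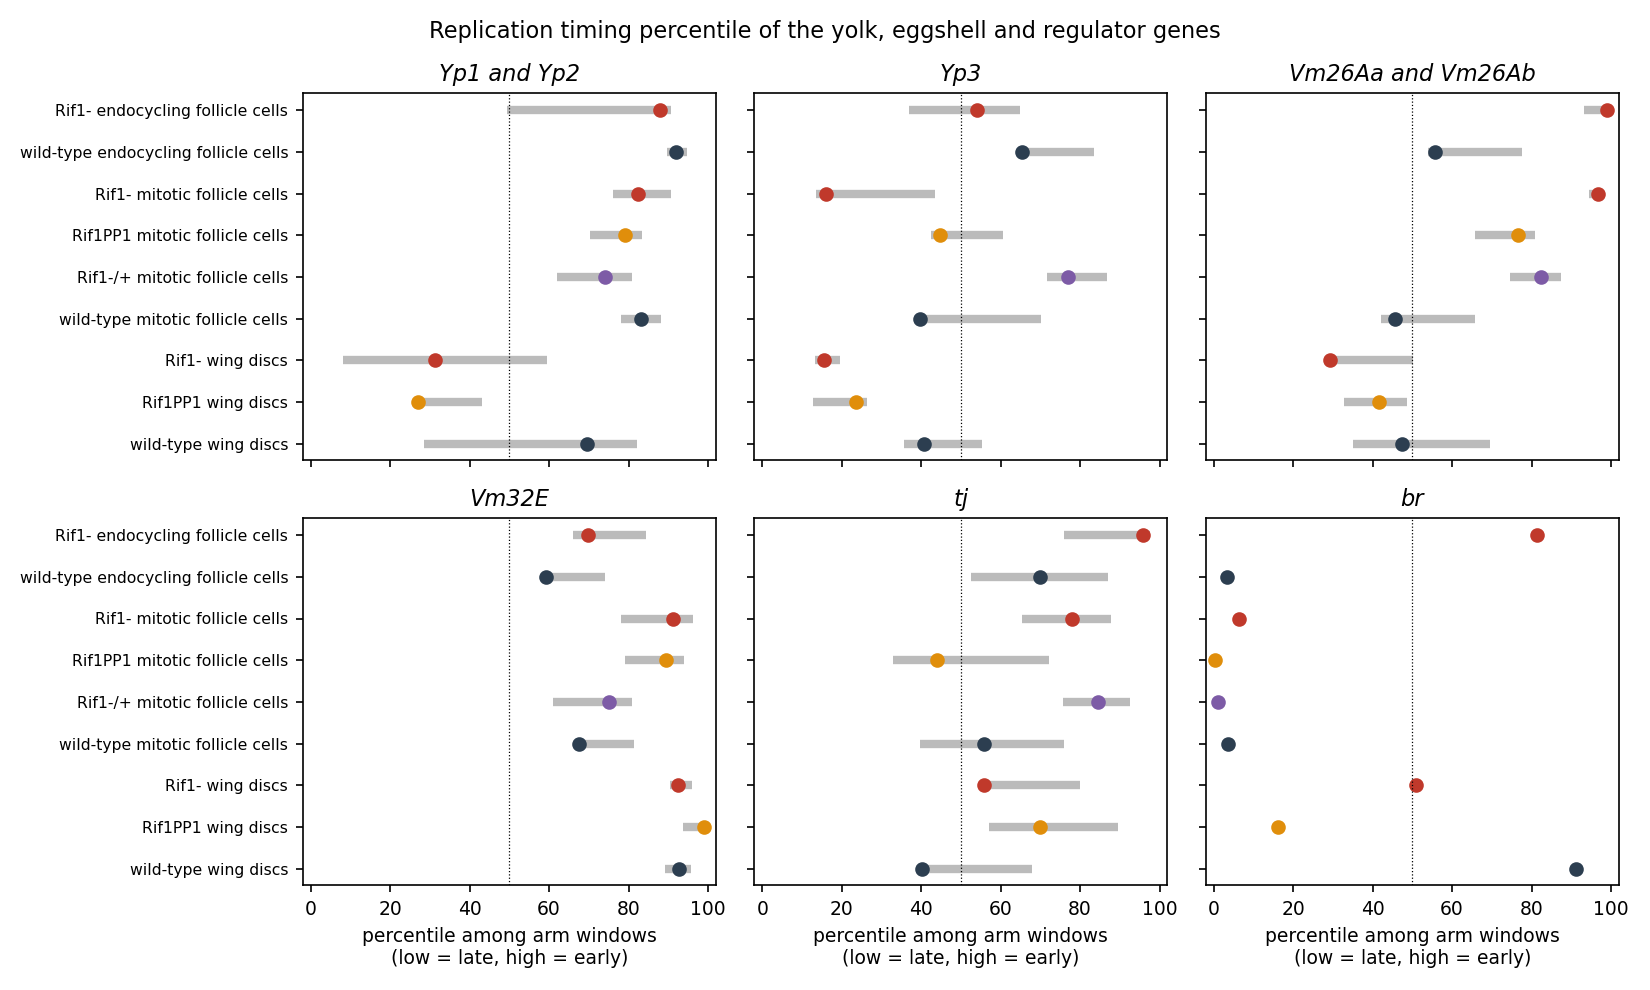
RT percentile of the 6 windows (x axis, 0 latest to 100 earliest among arm windows) in each of the 9 conditions (rows). Points show the window nearest to the gene, colored by genotype, and gray bars the range over all windows that hold the whole gene (*br* fits in 1 window and has no bar). *br* lay at 0.2 to 6.3 in 5 of the 6 follicle cell conditions and at 91.1 in wild-type wing discs, and *Vm26Aa/Vm26Ab* at 99.0 and 96.6 in the 2 *Rif1*- follicle cell conditions.

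*Yp1* and *Yp2*, which encode yolk proteins, were early in every follicle cell condition. In endocycling cells their window (chrX:10000001-10100000) stood at percentile 87.9 in *Rif1*- and 92.0 in wild type. In mitotic follicle cells it stood at 82.5 in *Rif1*-, 79.2 in *Rif1PP1*, 74.1 in *Rif1*-/+ and 83.2 in wild type. The 6 follicle cell values thus spanned 74.1 to 92.0, and their ranges over the windows holding *Yp1* overlapped between neighbors in this order. In wing discs the percentile was 31.4 in *Rif1*-, 27.1 in *Rif1PP1* and 69.5 in wild type, all below the lowest follicle cell value. Single windows that hold *Yp1* overlapped between the tissues, spanning 49.5 to 90.8 in *Rif1*- endocycling cells and 28.4 to 82.1 in wild-type wing discs. As the mean over those windows, *Yp1* stood at 74.0 to 92.3 in the follicle cell conditions and at 27.7 to 53.8 in the wing disc conditions.

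On the log2 scale these differences were small. The deposited ratio was 0.15 in *Rif1*- and 0.14 in wild-type endocycling cells, and 0.06 in *Rif1*- and 0.11 in wild-type mitotic follicle cells. It was -0.02 in *Rif1*- wing discs, -0.03 in *Rif1PP1* wing discs and 0.06 in wild-type wing discs. After normalization the change was 0.03 for wild-type mitotic follicle cells over wild-type wing discs, -0.07 for *Rif1*- over wild-type wing discs and -0.08 for *Rif1PP1* over wild-type wing discs, and none of the 8 comparisons passed 0.1. Part of the low percentile in mutant wing discs was shared by the whole X arm, whose median percentile was 36.3 in *Rif1*- and 33.8 in *Rif1PP1* wing discs, against 46.4 in wild-type wing discs. Ranked among the X arm windows alone, *Yp1* stood at 70.2 to 83.6 in the follicle cell conditions and at 45.0 in *Rif1*-, 41.1 in *Rif1PP1* and 71.6 in wild-type wing discs. Wild-type wing discs then lay above *Rif1*- (70.3) and *Rif1*-/+ (70.2) mitotic cells. After removal of the GC trend *Yp1* stood at 71.7 in *Rif1*-/+ mitotic cells and 79.3 in wild-type wing discs, so its order between tissues in wild type and the heterozygote depended on the ranking.

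The *Yp1/Yp2* window sat on a local maximum in wild-type follicle cells and in wild-type wing discs. Within 250 kb the highest value lay 10 kb away in both wild-type follicle cell conditions, at 0.16 in endocycling and 0.13 in mitotic cells. The lowest lay 150 kb to the left (toward lower coordinates), at -0.06 in endocycling and -0.08 in mitotic cells. The highest value also lay 10 kb away in wild-type wing discs (0.08) and in *Rif1*- endocycling, *Rif1*- mitotic and *Rif1*-/+ mitotic cells. It lay 30 kb away in *Rif1PP1* mitotic cells, 70 kb away in *Rif1*- wing discs and 140 kb away in *Rif1PP1* wing discs. In *Rif1*- endocycling cells the profile fell steeply on the right, with -0.12 at 80 kb and -0.24 at 90 kb, a step of -0.13 between windows that share most of their bases. The 95th percentile of such steps over the arms was 0.064 in that condition.

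*Yp3* (FBgn0004047, chrX:13759546-13761547, plus strand), the third yolk protein gene, lies 3.7 Mb from *Yp1* and had lower percentiles than *Yp1* in 8 of the 9 conditions, the exception being *Rif1*-/+ mitotic cells. Its window (chrX:13710001-13810000) stood at percentile 54.0 in *Rif1*- and 65.3 in wild-type endocycling cells. Among mitotic follicle cells the values were 16.1 in *Rif1*-, 44.7 in *Rif1PP1*, 76.9 in *Rif1*-/+ and 39.7 in wild type, so the heterozygote was the highest and the *Rif1*- mutant the lowest of this group. In wing discs they were 15.6 in *Rif1*-, 23.6 in *Rif1PP1* and 40.8 in wild type. The ranges over the windows holding *Yp3* did not overlap between the *Rif1*-/+ (71.8 to 86.9) and *Rif1*- (13.5 to 43.6) mitotic cells, while that of wild type (39.7 to 70.1) overlapped with *Rif1*- and not with *Rif1*-/+.

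None of the 8 comparisons passed the threshold at *Yp3*. The changes nearest to it were 0.09 for *Rif1*-/+ over wild-type mitotic cells and -0.08 for *Rif1*- over wild-type mitotic cells. The gene lies on the flank of an early domain: 250 kb to its right the ratio reached 0.32 in endocycling and 0.34 in mitotic cells of wild type, percentile 99.2 and 99.1. In *Rif1*- endocycling cells the highest value within 250 kb was 0.10, 60 kb to the left of the gene. Centered on the arm median, *Yp3* passed with 0.11 for *Rif1*-/+ over wild-type mitotic cells, and with all conditions normalized together *Yp1* and *Yp2* passed with -0.10 for *Rif1PP1* over wild-type wing discs. Most arm windows also stayed under the threshold in each comparison, as the shares given with the counts over all 8 genes show.

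*Vm26Aa* and *Vm26Ab* encode structural proteins of the vitelline membrane, and their window (chr2L:5910001-6010000) also holds the eggshell genes *Vm26Ac* and *psd*. It was among the earliest arm windows in *Rif1*- follicle cells and near the middle in wild type. In endocycling cells its log2 S/G1 was 0.34 in *Rif1*- and 0.03 in wild type, percentile 99.0 and 55.8. In mitotic follicle cells it was 0.13 in *Rif1*-, 0.08 in *Rif1PP1*, 0.11 in *Rif1*-/+ and 0.01 in wild type. The percentiles in mitotic cells were 96.6 in *Rif1*-, 76.6 in *Rif1PP1*, 82.4 in *Rif1*-/+ and 45.7 in wild type, so all 3 mutant genotypes were above wild type. Part of this was shared by the whole 2L arm. Its median percentile was 66.9 in *Rif1*-, 72.1 in *Rif1PP1* and 65.0 in *Rif1*-/+ mitotic cells, against 58.1 in wild type. Within 2L the window stood at 93.4 in *Rif1*-, 53.8 in *Rif1PP1*, 71.8 in *Rif1*-/+ and 40.7 in wild type.

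Wing discs did not show this order. The percentile was 29.3 in *Rif1*-, 41.5 in *Rif1PP1* and 47.5 in wild-type wing discs, and the ranges over the windows holding *Vm26Aa* overlapped among all 3. In *Rif1*- mitotic cells that range was 94.4 to 97.4, against 42.1 to 65.8 in wild-type mitotic cells, and in *Rif1*- endocycling cells it was 93.2 to 99.2, against 53.9 to 77.6 in wild type. The level in *Rif1*- follicle cells was therefore above wild type whichever of these windows was used.

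After normalization the change at *Vm26Aa/Vm26Ab* was 0.15 for *Rif1*- over wild-type mitotic cells and 0.29 for *Rif1*- over wild-type endocycling cells. Both passed the threshold. It was 0.09 for *Rif1*-/+ and 0.08 for *Rif1PP1* over wild-type mitotic cells, and -0.04 for *Rif1*- over wild-type wing discs. Whether the *Rif1*- effect differs between follicle cells and wing discs was not tested. With the GC trend of each profile removed, the *Rif1*- change was 0.14 in mitotic cells and 0.14 in endocycling cells, so the endocycling value was the one that shrank. The changes in *Rif1*-/+ and *Rif1PP1* mitotic cells were then 0.11 and 0.13 and passed the threshold.

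The windows past the threshold formed a run around the genes. In *Rif1*- over wild-type endocycling cells 18 windows in a row spanned 270 kb (chr2L:5870001-6140000), with a mean change of 0.21 and 62 protein-coding genes, and in mitotic cells 12 windows spanned 210 kb with a mean of 0.13. By length they ranked 34 of 288 and 20 of 88 among runs in the same direction, whose median was 5 windows in both comparisons. The place of the local maximum differed between *Rif1*- and wild type. In both wild-type follicle cell conditions the highest value within 250 kb was 100 kb to the left of the genes, 0.17 in endocycling and 0.18 in mitotic cells, and it ended in a step of -0.08 between the windows 70 and 60 kb to the left. In *Rif1*- cells the highest values were 60 kb to the right in endocycling cells (0.39) and 40 kb to the right in mitotic cells (0.14). In *Rif1PP1* mitotic cells it lay 100 kb to the left (0.12), as in wild type, and in *Rif1*-/+ mitotic cells 130 kb to the right (0.15).

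**Figure D2:**
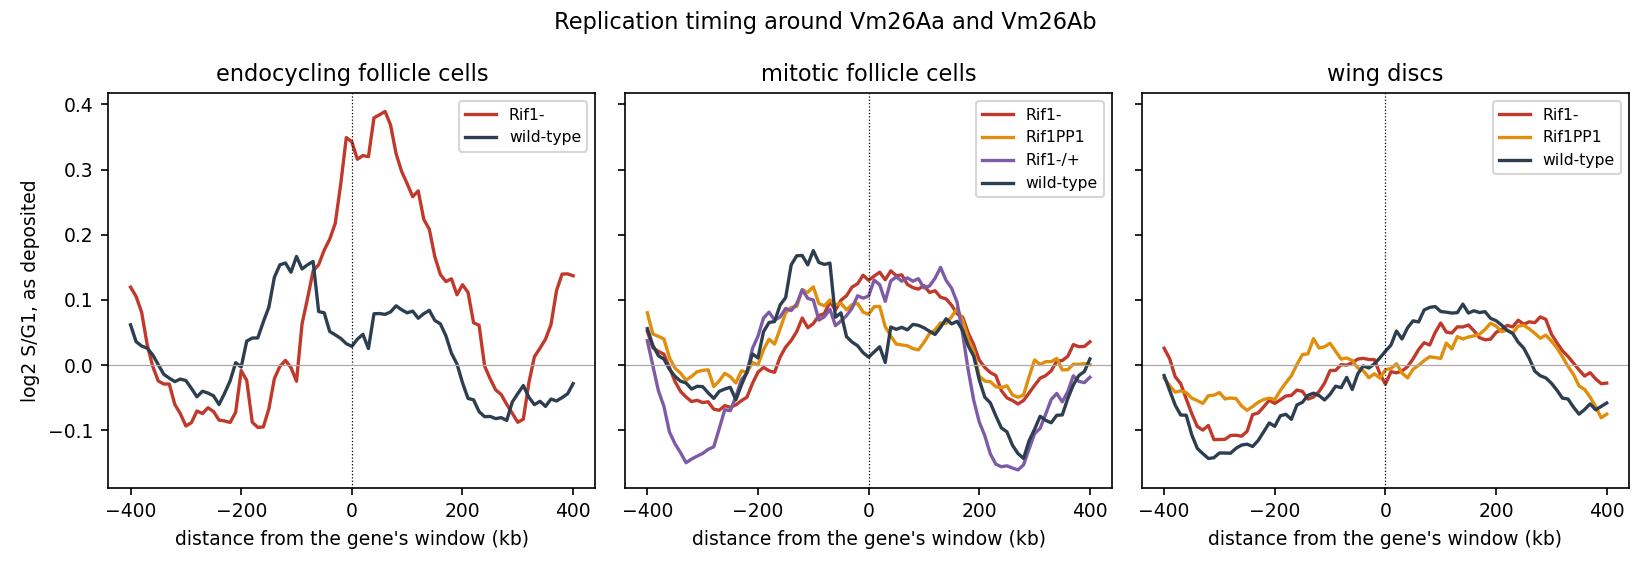
Deposited log2 S/G1 (y axis) in windows up to 400 kb on either side of the window of *Vm26Aa* and *Vm26Ab* (x axis, distance in kb) in endocycling follicle cells, mitotic follicle cells and wing discs, 1 line per genotype. *Rif1*- endocycling cells stood at 0.34 over the genes, against 0.03 in wild type, whose maximum of 0.17 lay 100 kb to the left.

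*Vm32E* (FBgn0014076, chr2L:11171167-11171665, minus strand), a vitelline membrane gene on the same arm, was in the earlier part of all arm windows in all 9 conditions. In that ranking it had its highest percentiles in wing discs. Its window (chr2L:11120001-11220000) had percentile 69.9 in *Rif1*- and 59.2 in wild-type endocycling cells. The mitotic follicle cells had 91.1 in *Rif1*-, 89.5 in *Rif1PP1*, 75.2 in *Rif1*-/+ and 67.4 in wild type. In wing discs it had 92.4 in *Rif1*-, 99.0 in *Rif1PP1* and 92.7 in wild type. All log2 ratios of *Vm32E* lay between 0.04 and 0.14, so the spread of 39.9 percentile points came from a narrow range of ratios.

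With pairwise normalization no comparison passed the threshold at *Vm32E*. The change was -0.08 for wild-type mitotic follicle cells over wing discs, 0.06 for *Rif1*- over wild-type mitotic cells and 0.08 for *Rif1PP1* over wild-type mitotic cells. With all conditions normalized together it passed for *Rif1PP1* over wild-type wing discs (0.19) and for wild-type mitotic follicle cells over wing discs (-0.11). For *Rif1PP1* over wild-type mitotic cells it passed after centering (0.10) and with the GC trend removed (0.11). Over the windows holding *Vm32E* the percentiles of *Rif1*- (78.1 to 96.1) and wild-type (67.4 to 81.3) mitotic cells overlapped, and so did those of *Rif1*- mitotic cells and all 3 wing disc conditions. Ranked among windows of 2L alone, *Vm32E* stood at 72.4 in *Rif1PP1* and 58.7 in wild-type mitotic cells, and at 48.2 in wild-type endocycling cells. With the GC trend removed, *Rif1PP1* (92.3) and *Rif1*- (91.7) mitotic cells lay slightly above *Rif1*- (91.6) and wild-type (91.5) wing discs. The order between tissues thus depended on the ranking.

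*tj* (FBgn0000964, chr2L:19464267-19467758, plus strand) encodes a large Maf transcription factor of somatic gonad cells that is needed for the contact between follicle cells and germ cells. Its window (chr2L:19420001-19520000) stood at percentile 95.9 in *Rif1*- and 69.8 in wild-type endocycling cells. Values in mitotic follicle cells were 77.9 in *Rif1*-, 44.1 in *Rif1PP1*, 84.5 in *Rif1*-/+ and 55.9 in wild type. In wing discs they were 55.7 in *Rif1*-, 70.0 in *Rif1PP1* and 40.3 in wild type, so among all arm windows *tj* was lowest in wild-type wing discs and highest in *Rif1*- endocycling cells. Ranked within 2L, *tj* was lowest in *Rif1PP1* mitotic cells (21.7, against 46.4 in wild-type wing discs). Without the GC trend it was highest in *Rif1*-/+ mitotic cells (93.2), above *Rif1*- endocycling cells (85.4).

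With pairwise normalization only *Rif1*- over wild-type endocycling cells passed the threshold at *tj*, with log2 S/G1 of 0.23 in *Rif1*- and 0.06 in wild type and a normalized change of 0.15. With the GC trend removed the change was 0.01, and it also fell under the threshold with the window nearest to the annotated start (0.09) and with the mean over the windows holding the gene (0.09). *tj* sat at the left end of its run of 10 windows (190 kb, chr2L:19420001-19610000), whose highest change of 0.26 lay 74 kb to the right of the gene. The changes in the other 7 comparisons lay between -0.03 and 0.07. Centered on the arm median, *tj* also passed with 0.10 for *Rif1*-/+ over wild-type mitotic cells.

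*br* encodes a family of BTB zinc-finger transcription factors that respond to ecdysone, act in the larval discs at metamorphosis and pattern the dorsal appendages of the eggshell in late follicle cells. It is the longest of the 8 genes (FBgn0283451, chrX:1575132-1664869, plus strand, 89738 bases) and fills most of its window (chrX:1570001-1670000). *br* was late in 5 of the 6 follicle cell conditions. In endocycling cells its log2 S/G1 was 0.11 in *Rif1*- and -0.17 in wild type, percentile 81.3 and 3.3. In mitotic follicle cells it was -0.11 in *Rif1*-, -0.35 in *Rif1PP1*, -0.33 in *Rif1*-/+ and -0.20 in wild type, percentile 6.3, 0.2, 1.1 and 3.7.

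Ranked among all arm windows, *br* was spread over most of the scale in wing discs. The log2 S/G1 was 0.01 in *Rif1*-, -0.05 in *Rif1PP1* and 0.09 in wild type, and the percentile was 50.8 in *Rif1*-, 16.2 in *Rif1PP1* and 91.1 in wild type. In that ranking the full span of 91.0 percentile points, between *Rif1PP1* mitotic follicle cells and wild-type wing discs, was the widest of the 6 windows. With the GC trend removed, *br* stood at 48.5 in *Rif1*-, 45.2 in *Rif1PP1* and 75.4 in wild-type wing discs. Its lowest percentile was then 2.9, in *Rif1PP1* mitotic cells. *Vm26Aa/Vm26Ab* then ran from 22.7 in *Rif1*- wing discs to 97.9 in *Rif1*- endocycling cells, so *br* no longer had the widest span.

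Wild-type mitotic follicle cells were later than wild-type wing discs at *br*, with a normalized change of -0.31 and a deposited difference of -0.30. The change lay at percentile 0.9 of the arm windows. It belonged to a run of 73 windows (820 kb, chrX:1200001-2020000) with a mean change of -0.24 and 88 protein-coding genes, the longest of the 218 runs of the arms toward later RT in that comparison. The largest change of the run, -0.60, lay 100 kb to the left of the midpoint of *br*. All 7 alternatives tried kept this call and its direction, and with the GC trend removed the change was -0.19.

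*Rif1*- and wild-type endocycling cells differed at *br* by 0.29 after normalization and by 0.28 as deposited, toward earlier RT in *Rif1*-. The run around it held 62 windows over 710 kb (chrX:1140001-1850000), the second longest of 288 toward earlier RT. This call was lost with the GC trend removed: the change was then -0.10, which did not pass the threshold. The percentile of *br* was then 7.0 in *Rif1*- and 6.3 in wild type. The 571 arm windows with the highest GC content had a median percentile of 94.0 in *Rif1*- endocycling cells and 32.8 in wild-type endocycling cells. The part of GC content in the ratio at *br*, *tj* and *Vm26Aa/Vm26Ab* was not tested beyond this removal, which also takes out any true RT that follows GC content.

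In mitotic follicle cells the *Rif1*- change at *br* was -0.07 and did not pass the threshold, while the deposited value of *Rif1*- was 0.09 above wild type. The direction thus depended on the scaling, being 0.12 with each condition centered on its arm median and -0.12 with the GC trend removed. *Rif1PP1* and *Rif1*-/+ passed toward later RT, with normalized changes of -0.53 and -0.25 and deposited differences of -0.15 and -0.12. The normalized sizes were set mostly by the normalization, since the percentiles were 0.2 in *Rif1PP1*, 1.1 in *Rif1*-/+ and 3.7 in wild type. With the GC trend removed the change was -0.15 in *Rif1PP1* and -0.06 in *Rif1*-/+, which is under the threshold.

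In wing discs *Rif1PP1* was later than wild type at *br*, with a normalized change of -0.15 and a deposited difference of -0.14, in a run of 31 windows over 400 kb that was the second longest of 157. With the GC trend removed the change was -0.05. For *Rif1*- over wild-type wing discs it was -0.08, under the threshold, and -0.13 when all 9 conditions were normalized together. Both mutants were below wild type in wing discs, and their difference from each other was not among the comparisons made.

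**Figure D3:**
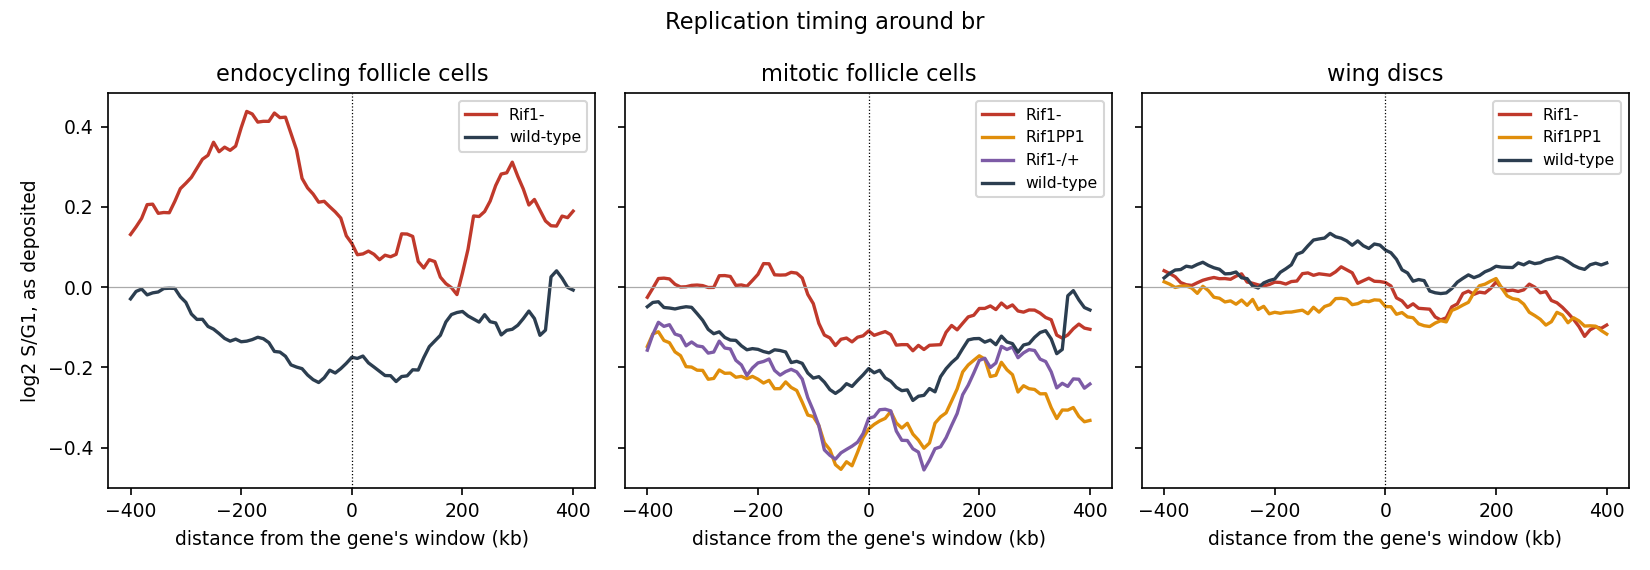
Deposited log2 S/G1 (y axis) up to 400 kb on either side of the *br* window (x axis, distance in kb) in endocycling follicle cells, mitotic follicle cells and wing discs, 1 line per genotype. Over *br*, *Rif1*- endocycling cells stood at 0.11 and wild-type endocycling cells at -0.17, the 4 mitotic conditions at -0.11 to -0.35 and the 3 wing disc conditions at -0.05 to 0.09.

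Counted over all 8 genes, few comparisons stood out from the arms. *Rif1*- over wild-type endocycling cells passed the threshold at 4 of 8 genes on 3 of 6 windows, all toward earlier RT, where 44.4% of arm windows passed in either direction, 20.1% toward earlier and 24.3% toward later RT. *Rif1*- over wild-type mitotic cells passed at *Vm26Aa* and *Vm26Ab*, 1 of 6 windows, with 20.9% of arm windows. *Rif1*-/+ over wild-type mitotic cells passed at *br* alone, with 25.5% of arm windows, and *Rif1PP1* over wild-type mitotic cells at *br* alone, with 28.0%. Read in either direction, these shares of windows lie near or below the background of their comparisons.

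In the wing disc comparisons, *Rif1*- over wild type passed at none of the 8 genes, with 6.23% of arm windows, and *Rif1PP1* over wild type at *br* alone, with 10.8%. Between tissues, wild-type mitotic follicle cells over wild-type wing discs passed at *br* alone, with 32.1% of arm windows. Between cell cycles, wild-type endocycling over wild-type mitotic follicle cells passed at none, with 1.43% of arm windows, and the 8 genes changed by -0.02 to 0.05. On the log2 scale the endocycling value was thus close to the mitotic value at all 8 genes, the largest change being 0.05 at *Yp3*. Arm windows also changed little here, with a 5th to 95th percentile of -0.053 to 0.057. Within that narrow spread the member changes lay between percentile 26.9 at *Vm32E* and 94.2 at *Yp3*. The RT percentile of *Yp3* was 65.3 in endocycling and 39.7 in mitotic cells. The 4 comparisons over wild-type mitotic cells share that condition, so their changes are not independent of each other.

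**Figure D4:**
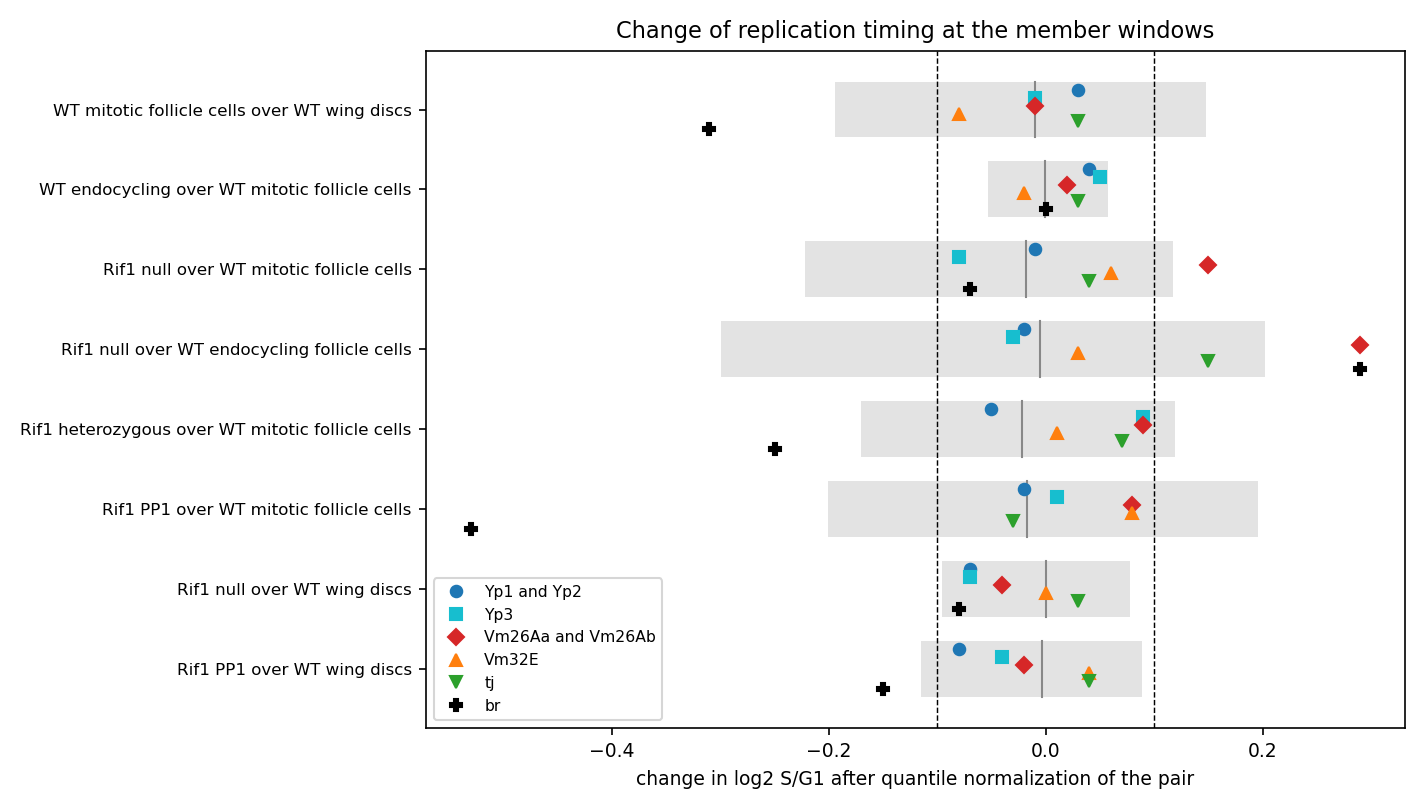
Change in log2 S/G1 after quantile normalization of each pair (x axis) at the 6 windows in 8 comparisons (rows). Symbols mark the windows, gray boxes span the 5th to 95th percentile of arm windows with their median as a line, and dashed lines mark 0.1 in either direction. *br* lay outside the box toward later RT in 4 comparisons, at -0.15 to -0.53, and toward earlier RT at 0.29 in *Rif1*- over wild-type endocycling cells, and *Vm26Aa/Vm26Ab* lay outside it toward earlier RT at 0.29 and 0.15 in *Rif1*- over wild-type endocycling and mitotic cells.

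Other genes of the egg chamber gave the frame for these values. Of 17 other eggshell genes outside the chorion clusters, on 16 windows, 11 lay above percentile 50 in *Rif1*- endocycling cells and 11 in wild-type endocycling cells, and 7 lay above percentile 90 in *Rif1*- and 1 in wild type. Of the 13657 protein-coding genes of the arms, 8557 lay above percentile 50 in *Rif1*- and 7356 in wild-type endocycling cells. Above percentile 90 lay 2154 of them in *Rif1*- and 1328 in wild-type endocycling cells. Over distinct windows the median percentile of the other eggshell genes was 86.3 in *Rif1*- and 59.9 in wild type. For all genes of the arms, counted gene by gene, it was 62.2 and 53.7. For *Rif1*- over wild-type endocycling cells 8 of the 17 genes passed toward earlier and 4 toward later RT, where 20.1% and 24.3% of arm windows did. The list includes *Vm26Ac* and *psd*, which share the *Vm26Aa/Vm26Ab* window. In wild-type mitotic cells the earliest of them were *Fcp3C*, a follicle cell protein gene, at 91.8 and *ndl*, a protease gene of dorsoventral patterning, at 87.1. The latest were *fs(1)N*, an eggshell protein gene that lies within the late run around *br*, at 10.8 and *yellow-g2*, a gene of eggshell hardening, at 12.8.

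Of 8 genes of yolk uptake and control, 5 passed toward earlier and 2 toward later RT in *Rif1*- over wild-type endocycling cells, where 20.1% and 24.3% of arm windows did, with a median change of 0.12. In *Rif1*- over wild-type mitotic cells 1 passed toward later RT, where 14.4% of arm windows did. In wild-type mitotic cells the earliest were *Hr39*, a nuclear receptor gene, with a log2 S/G1 of 0.18, and *yl*, the yolk protein receptor gene, at percentile 88.8. The latest were *boca*, whose product folds the yolk receptor, at 17.2 and *usp*, which encodes the partner of the ecdysone receptor, at 18.3. *Hr39* passed toward later RT in both cell cycles, with changes of -0.23 in *Rif1*- mitotic and -0.19 in *Rif1*- endocycling cells over wild type. It also changed by -0.11 in wild-type endocycling over wild-type mitotic cells. Because *Hr39* was named as the earliest of its list in wild-type mitotic cells, a move toward later RT is favored by that choice.

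Among 16 regulators of follicle cell fate, 3 passed toward earlier and 5 toward later RT in *Rif1*- over wild-type endocycling cells, with a median change of -0.05. These counts lie near the arm shares of 20.1% toward earlier and 24.3% toward later RT. The earliest in wild-type mitotic cells were the transcription factor genes *mid*, at 96.7, and *ct*, at 95.4, and the latest were *cas*, at 8.3, and *da*, at 12.2, which also encode transcription factors. The normalized change for *Rif1*- over wild-type endocycling cells was -0.18 at *mid*, -0.19 at *ct*, 0.15 at *cas* and 0.04 at *da*, of which *da* did not pass the threshold. These genes were named as extremes of wild-type mitotic cells, so changes toward the middle are favored by that choice. No list was tested as a set, since windows overlap and neighboring genes share them. List values were not recomputed with the GC trend removed. The part of GC content in them was therefore not tested, where rho with GC content was 0.74 in *Rif1*- endocycling cells.

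**Figure D5:**
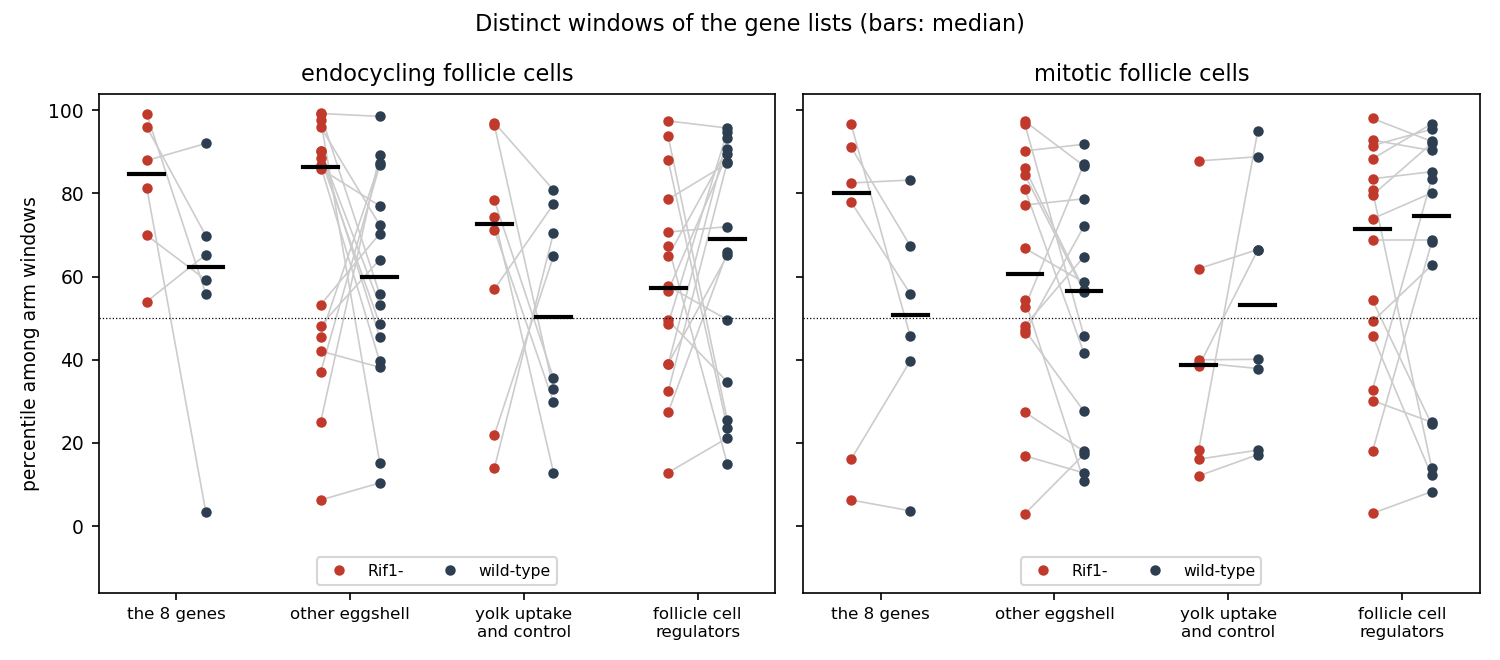
RT percentile (y axis) of the distinct windows of the 8 genes and of 3 other gene lists (x axis) in endocycling and mitotic follicle cells, *Rif1*- on the left and wild type on the right of each pair. Lines join the same window and black bars are medians, which were 84.6 in *Rif1*- and 62.2 in wild-type endocycling cells for the 8 genes and 86.3 and 59.9 for the other eggshell genes. In mitotic cells the other eggshell genes had 60.6 in *Rif1*- and 56.6 in wild type, and in endocycling cells the follicle cell regulators had 57.1 in *Rif1*- and 69.0 in wild type.

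Windows with a percentile pattern most like each of the 6 were looked for elsewhere on the arms, over 500 kb from all members, by the mean absolute percentile difference over the 9 conditions. *Yp1/Yp2* were matched most closely by windows named for *CG10232* (mean difference 4.4 points) and *LSm1* (5.8), where the median over all candidates was 33.0. *Vm32E* was matched by *CG42831* (4.7) and *velo* (5.2), and *tj* by *scaf6* (5.7) and *Nak* (7.8). *Vm26Aa/Vm26Ab* were matched by *CG2258* (6.0) and *Cyp311a1* (8.6), *br* by *Cdc5* and *PAN2* (8.2 each) and *Yp3* by *msn* (9.0) and *Baldspot* (9.8). Each gene named is the one nearest to the middle of its window, and a window holds many others.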

How the data were processed

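S phase and G1 nuclei were sorted by DNA content and sequenced. The authors aligned reads to dm6 with Bowtie 2 (version 2.3.2), dropped alignments of low mapping quality with SAMtools (version 1.9), counted reads with BEDTools over windows of 100 kb placed every 10 kb, scaled them to depth, and deposited the mean log2 S/G1 ratio of each condition before quantile normalization. A mean hides the spread of its 2 samples, and long windows average neighboring genes. Lengths of all 6 scaffolds matched the RefSeq dm6 genome.

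Percentiles, pairwise quantile normalization over all windows, and changes were computed with Python 3.11.15, numpy 2.4.6 and pandas 2.3.3, and the change calculation was tested on simulated data. Figures were drawn with matplotlib 3.10.9. A few windows without a finite value in a condition were left out there. The GC trend was removed as the median of arm windows in 50 GC bins. Other alternatives were joint normalization, centering, values as deposited, a threshold of 0.2, other windows for a gene, ranking within the own arm, and pericentric limits moved by 0.5 Mb.

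The 8 genes, the lists and the comparisons were chosen with earlier results of these data known. All 8 genes are named. Of each list, the 2 earliest and 2 latest in wild-type mitotic follicle cells are named, and the further values of *Hr39* and of the 4 regulators in *Rif1*- cells were added after they were seen. Of 35 samples, 1 has labels that disagree on its phase and was put in no group. RNA samples were not analysed here.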

Additional observations from a re-analysis of the deposited data

How the results depend on the processing

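The counts of the 8 genes past the threshold depended on scaling and GC content. With all 9 conditions normalized together, 2 genes passed for wild-type mitotic follicle cells over wing discs, 1 for *Rif1*- and 4 for *Rif1PP1* over wild-type wing discs (*Yp1*, *Yp2*, *Vm32E* and *br*). Centered on the arm median, 5 passed for *Rif1*-/+ and 2 for *Rif1PP1* over wild-type mitotic cells. With the GC trend removed, 2 passed for *Rif1*- over wild-type endocycling cells, 2 for *Rif1*-/+ and 4 for *Rif1PP1* over wild-type mitotic cells and 0 for *Rif1PP1* over wild-type wing discs. At *br* the change in *Rif1*- over wild-type endocycling cells was then -0.10, which did not pass. At a threshold of 0.2, 0 passed for *Rif1*- over wild-type mitotic cells and 0 for *Rif1PP1* over wild-type wing discs. The other counts stayed within 1.5 times of those reported. Ranking within the own arm moved 34 of 72 percentiles and removing the GC trend 25, by over 1 SD of the windows within 50 kb of the gene's window. No paired analysis was possible because only 1 mean per condition was used, and for the same reason no replicate could be left out. Depth per window is unknown.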
